A study of Mus musculus with 18 samples.

Results

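The core circadian clock loop was followed through 10 genes, Arntl (also called Bmal1), Clock, Npas2, Per1, Per2, Per3, Cry1, Cry2, Nr1d1 and Nr1d2, across the zones of the mouse liver lobule and across feeding states. The genes were taken by name and matched by symbol to the Ensembl mouse identifiers of the deposited table. All 10 were found among its 28030 genes, and all 10 were among the 12477 genes with enough counts to be tested. RNA was sequenced from hepatocytes of wild-type (WT) C57BL/6J male mice aged 12 weeks on normal chow (lab diet #5053). Hepatocytes of the pericentral side (PC, beside the vein that drains the lobule) or of the periportal side (PP, where blood enters) were isolated with the help of digitonin, a detergent that opens cells. All mice had been trained for 3 days to eat for 8 h in the daytime, from clock hour 9 to clock hour 17, and to go without food for the other 16 h. On the day of the experiment all were given food, with 20% sucrose in the drinking water. The fed groups (0h) were killed at clock hour 13, after 4 h of feeding. The 8h groups had food and sucrose water taken away at that hour and were killed at clock hour 21, and the 24h groups were killed at clock hour 13 of the next day. There were 3 libraries in each of these 6 groups, 18 in all. The labels do not say whether libraries that share a replicate number came from the same mouse, nor whether each library is a separate mouse, so p-values measure the spread between these libraries. The light schedule is not given in the sources used here.

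The clock is a loop of transcription that runs in nearly every cell. The proteins BMAL1 (from Arntl) and CLOCK, or its relative NPAS2, pair and bind the E-box sequence, and so turn on the Per, Cry and Nr1d genes together with many output genes. PER and CRY proteins gather and return to the nucleus to shut that pair down, while the REV-ERB receptors made from Nr1d1 and Nr1d2 repress Arntl, Clock, Npas2 and Cry1 at sites shared with the ROR activators. In the liver the time of feeding is known to set the phase of this loop. The fed and 24h groups were killed at the same clock hour, whereas the 8h groups were killed later in the day. In the 8h groups the effects of clock hour and of time without food cannot be told apart.

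Libraries held between 18359911 and 26384358 estimated counts. Levels are given as CPM, in which each gene's count is set relative to its library's total after TMM scaling between libraries, and a gene was called changed at an adjusted p under 0.05 in edgeR's quasi-likelihood test over all genes tested. Zone markers set the libraries apart as labelled in every state, with Cyp2e1 at 7611 to 16062 CPM in the 9 pericentral libraries and 325 to 1826 CPM in the 9 periportal ones. Pericentral 24h replicate 2 stood apart from its group. Its 4 pericentral markers summed to 10836 CPM against 15429 and 18314 CPM, which is within the range of the pericentral 8h libraries (9305 to 10971 CPM). Of these markers Glul was at 111 CPM against 928 and 707 CPM. In this library the periportal markers summed to 1793 CPM, against 869 and 806 CPM in the others of the group. Calls that change without it are given with their values. Of the 4 cholangiocyte markers Epcam was at 0 in all 18 libraries, but the list as a whole was not, as its sums below show. The 5 markers of Kupffer cells and leukocytes summed to 0.186 to 4.82 CPM in pericentral and 0.404 to 18.3 CPM in periportal libraries. Markers of sinusoidal endothelial cells summed to 2.63 to 9.14 and 3.43 to 24.7 CPM, those of stellate cells and fibroblasts to 0.696 to 4.94 and 0.969 to 14.5 CPM, and those of cholangiocytes to 13.9 to 27.7 and 21.2 to 33.7 CPM. The part of these cells in the results was not tested. In these bulk samples fewer cells of a type and less RNA per cell cannot be told apart.

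**Figure D1:**
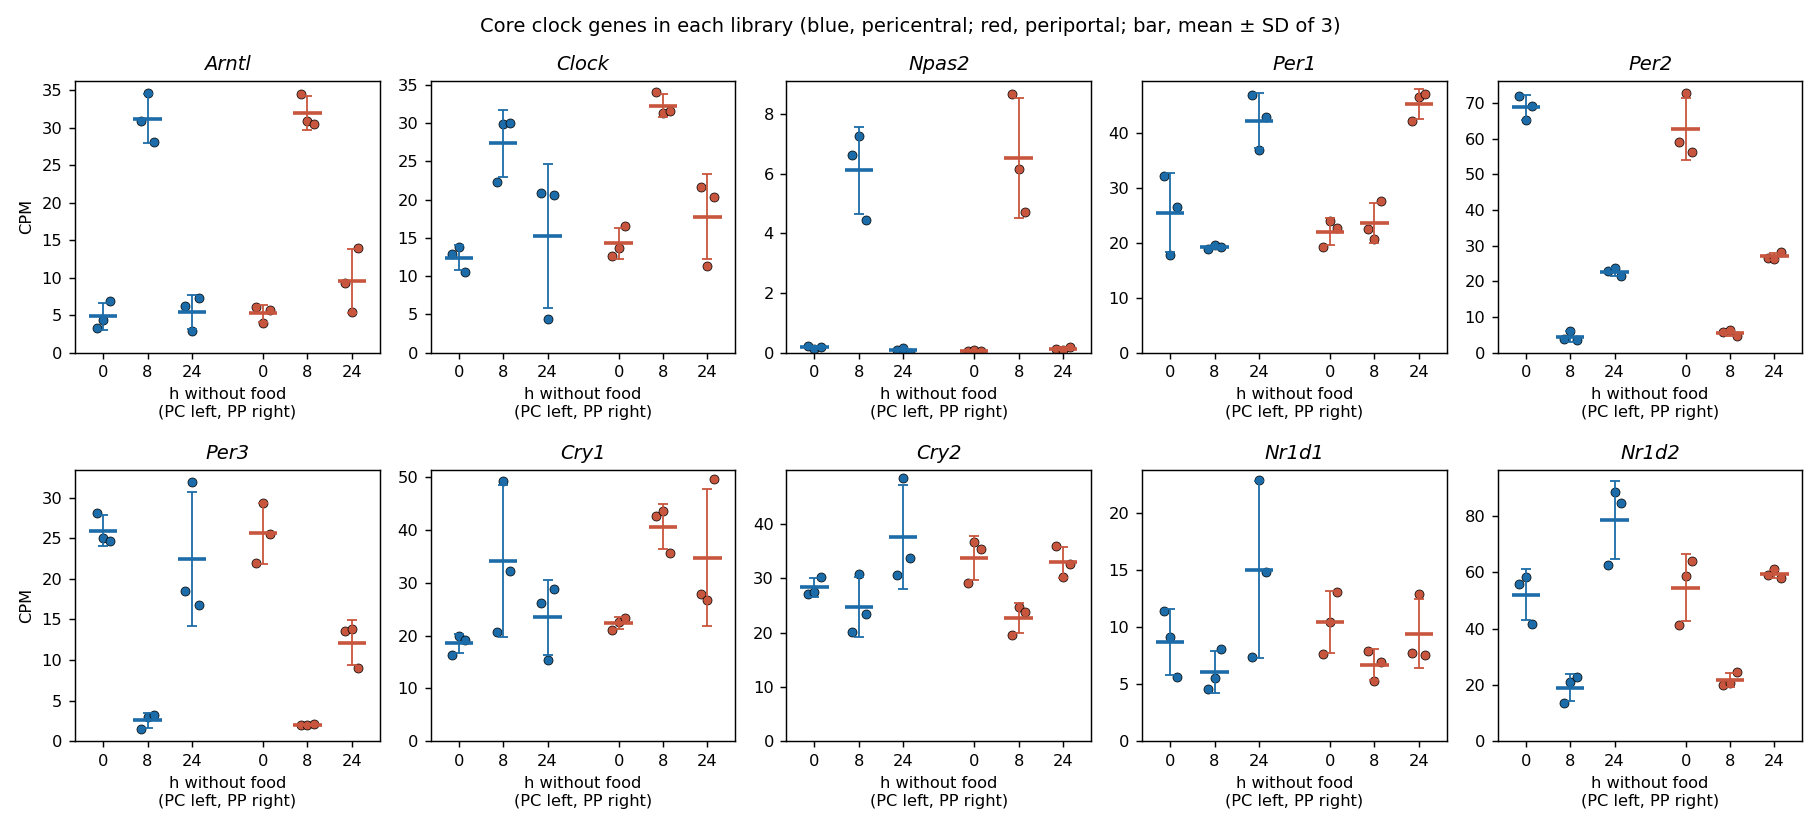
CPM of the 10 clock genes (vertical axes, each starting at 0) against hours without food (horizontal axes), with pericentral libraries in blue on the left and periportal ones in red on the right of each panel; points are single libraries and bars the mean ± SD of 3. Arntl, Clock and Npas2 stood highest at 8h, Per2, Per3 and Nr1d2 lowest at 8h, and Per1 highest at 24h.

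Between the fed and the 8h state activators of the loop rose and several of its repressors fell. By edgeR at an adjusted p under 0.05, 5 of the 10 genes were called in pericentral hepatocytes (2 higher, 3 lower), where 13.8% of all genes tested were called (7.27% higher, 6.57% lower). In periportal hepatocytes 6 were called (2 higher, 4 lower), against 14.4% of all genes tested (7.56% higher, 6.85% lower). Arntl and Npas2 rose in both zones, while Per2, Per3 and Nr1d2 fell in both. Averaged over the zones 8 genes were called (4 higher, 4 lower), against 26.4% of all genes tested (13.8% higher, 12.5% lower). These added rises of Clock and Cry1 and a fall of Cry2 (-0.38, adjusted p = 0.0257), the last of which was lost when any of 6 single libraries was left out (adjusted p up to 0.0665). Npas2 passed the filter on low counts through its 8h libraries alone, so it had to differ and its place in these counts is no support for them. The median change of the 10 genes was -0.30 (log2) in pericentral and -0.24 in periportal hepatocytes, beside 0.01 and 0.01 over all genes tested. Those small medians cover changes in opposite directions. The median size without sign was 1.29 and 1.25 for the 10 genes, Npas2 included, and 0.25 and 0.25 for all genes.

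The activators were at their highest after 8 h without food. Arntl (ENSMUSG00000055116, GRCm38 chr7:113207465-113314126, plus strand) had 3.21, 4.41 and 6.85 CPM in the 3 fed pericentral libraries and 31.0, 34.6 and 28.0 CPM in the 3 pericentral 8h libraries. In periportal hepatocytes it had 6.11, 3.95 and 5.69 CPM when fed and 34.6, 30.9 and 30.5 CPM at 8h. Every 8h library lay far above every fed one, in both zones. Arntl was 6.48-fold higher at 8h in pericentral hepatocytes (log2 2.70, SE 0.36; edgeR adjusted p = 1.53e-04) and 6.09-fold higher in periportal ones (log2 2.61, SE 0.35; adjusted p = 2.38e-04).

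Arntl is itself repressed by the REV-ERB receptors, so the stretch around its start was searched for the sequence they share with the ROR activators, written NANNTN followed directly by GGTCA (N, any base; both strands). RefSeq windows of 300 bases, from 250 before to 50 after a start, were found for 9 of the 10 genes (GRCm38.p6), Per2 being the one not matched. Of all 32817 such windows, 2.45% hold that sequence. In one of the 2 Arntl windows it begins 27 bases past the start, and it is shown here in capitals because Arntl was among the genes with the largest rise at 8h:
Arntl site, chr7:113207528-113207555, plus strand: ggaaggcagAAAGTAGGTCAgggacgga
The match describes the letters and was not tested as a site of binding in these cells.

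Npas2 (ENSMUSG00000026077, GRCm38 chr1:39193731-39363236, plus strand), which can take the place of CLOCK beside BMAL1, went from nearly nothing to a clear signal. The fed pericentral libraries held 6, 3 and 5 estimated counts of Npas2 and the pericentral 8h libraries 162, 156 and 115. In periportal hepatocytes the fed libraries held 1, 2 and 1 estimated counts and the 8h libraries 215, 139 and 101. The ratio of the pooled CPM at 8h to those in the fed state was 34.5 (95% interval 20.3 to 63.6) in pericentral and 127 (95% interval 49.1 to 467) in periportal hepatocytes, intervals that cover counting error only. Since these 8h libraries are what let Npas2 into the test, the difference is given as a description, with no p. At 24h the pericentral libraries were back at 2, 4 and 0 counts and the periportal ones at 2, 2 and 4.

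Clock (ENSMUSG00000029238, GRCm38 chr5:76209868-76304792, minus strand), the usual partner of BMAL1, showed a smaller difference in the same direction. It had 12.9, 13.8 and 10.6 CPM in fed and 22.3, 29.9 and 30.0 CPM in 8h pericentral libraries. The periportal libraries had 12.7, 13.6 and 16.5 CPM when fed and 34.0, 31.3 and 31.6 CPM at 8h. In neither zone did the 8h libraries overlap the fed ones. Within a zone the differences of 1.14 (log2, SE 0.40) and 1.18 (SE 0.40) missed the threshold (edgeR adjusted p = 0.0783 and 0.0653). Over both zones together Clock rose 2.23-fold (log2 1.16, SE 0.28; adjusted p = 0.00739). Without pericentral 24h replicate 2, Clock was also called within each zone (1.14, adjusted p = 0.00105, and 1.18, adjusted p = 8.43e-04). With all libraries kept, Clock was called within each zone by DESeq2's Wald test and when only the groups compared were fitted. Limma-voom called it in periportal hepatocytes alone, and the other alternatives in neither zone.

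Among the repressors of the Period family, Per2 and Per3 fell at 8h. Per2 (ENSMUSG00000055866, GRCm38 chr1:91415982-91459324, minus strand) fell from 72.0, 65.1 and 69.0 CPM in fed pericentral libraries to 3.77, 6.14 and 3.40 CPM at 8h. In periportal libraries it fell from 59.1, 72.6 and 56.3 CPM to 5.65, 6.27 and 4.52 CPM. The highest 8h library was below every fed library by a wide margin. Per2 was 15.6-fold lower at 8h in pericentral (log2 -3.96, SE 0.18; edgeR adjusted p = 1.16e-09) and 11.4-fold lower in periportal hepatocytes (log2 -3.51, SE 0.18; adjusted p = 5.47e-09). Per2 had the lowest adjusted p of the 10 genes in both of these comparisons.

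Per3 (ENSMUSG00000028957, GRCm38 chr4:151003652-151044665, minus strand) also fell. Fed pericentral libraries had 28.1, 25.1 and 24.6 CPM of Per3 and pericentral 8h libraries 1.47, 2.98 and 3.25 CPM. Fed periportal libraries had 21.9, 29.3 and 25.5 CPM and periportal 8h libraries 1.98, 2.05 and 2.10 CPM. Here too no 8h library reached a fed one. The fall was 10.1-fold in pericentral (log2 -3.34, SE 0.28; edgeR adjusted p = 1.78e-06) and 12.5-fold in periportal hepatocytes (log2 -3.65, SE 0.29; adjusted p = 1.20e-06). The window before the Per3 start holds the D-box TTATGTAA at 2 places, 205 and 158 bases before the start, and 0.935% of all windows hold it on either strand. The D-box is bound by the factors DBP, TEF and HLF and by their competitor NFIL3, whose RNAs are given further on. It is printed for that reason, with both sites in capitals:
Per3, chr4:151044666-151044915, minus strand: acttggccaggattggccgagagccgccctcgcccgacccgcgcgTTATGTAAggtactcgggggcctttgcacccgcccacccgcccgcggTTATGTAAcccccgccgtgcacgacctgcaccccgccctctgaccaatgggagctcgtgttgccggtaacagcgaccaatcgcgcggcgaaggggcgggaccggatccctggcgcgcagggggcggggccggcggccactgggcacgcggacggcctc

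Per1 (ENSMUSG00000020893, GRCm38 chr11:69095217-69109960, plus strand), the third Period gene, was not called at 8h with all libraries kept. It had 32.2, 17.8 and 26.4 CPM in fed and 18.8, 19.6 and 19.3 CPM in 8h pericentral libraries. In periportal libraries it had 19.3, 24.0 and 22.7 CPM and 22.5, 20.7 and 27.6 CPM. Fed and 8h libraries overlapped in both zones. The differences were -0.41 (log2, 95% interval -0.76 to -0.06; edgeR adjusted p = 0.121) and 0.10 (-0.25 to 0.45; adjusted p = 0.757), intervals that do not reach the falls of Per2 and Per3. Without fed pericentral replicate 2, the lowest of its group at 17.8 CPM, the pericentral value was -0.60 and was called (adjusted p = 0.0114), and without replicate 1 it was -0.20 and was not. One of the 2 Per1 windows holds an E-box, CACGTG, 166 bases before the start, as do 7.15% of all windows. It is the sequence that the BMAL1 pair binds. The part of this E-box in the Per1 levels was not tested. The stretch is shown because Per1 was highest at 24h, with the E-box in capitals:
Per1, chr11:69098699-69098947, plus strand: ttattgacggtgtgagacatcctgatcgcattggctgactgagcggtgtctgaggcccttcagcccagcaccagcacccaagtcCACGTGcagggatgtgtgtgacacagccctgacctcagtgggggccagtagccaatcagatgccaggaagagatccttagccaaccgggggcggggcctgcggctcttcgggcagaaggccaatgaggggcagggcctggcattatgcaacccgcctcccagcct

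The Cryptochromes, whose proteins carry much of the repression of the BMAL1 pair, moved less and in opposite directions. Cry1 (ENSMUSG00000020038, GRCm38 chr10:85131700-85185064, minus strand) had 16.4, 20.0 and 19.2 CPM in fed and 20.6, 49.3 and 32.3 CPM in 8h pericentral libraries. Periportal libraries had 21.1, 22.5 and 23.4 CPM when fed and 42.7, 43.5 and 35.7 CPM at 8h. The 8h libraries lay above the fed ones within each zone, but pericentral 8h replicate 1 exceeded the highest fed pericentral library only narrowly. Within zones the log2 differences of 0.88 (SE 0.30) and 0.86 (SE 0.29) missed the threshold, with adjusted p of 0.0631 and 0.0642 by edgeR. Without pericentral 24h replicate 2 both were called (0.0428 and 0.0441), and likewise when replicate 1 of the pericentral 8h group, or replicate 3 of the periportal 24h group, was the one left out. With pericentral 8h replicate 2 left out, the pericentral value was 0.53 (adjusted p = 0.290). With all libraries kept, DESeq2's Wald test called Cry1 in both zones. A fit to only the groups compared called it in periportal hepatocytes alone, and the other alternatives in neither zone. Over both zones together Cry1 rose 1.83-fold (log2 0.87, SE 0.21; adjusted p = 0.00596). Its window holds an E-box 60 bases before the start and, 79 bases before it, the related AACGTG, the reverse complement of CACGTT that 4.69% of windows hold. The E-box is in capitals, for comparison with that of Per1:
Cry1, chr10:85185065-85185304, minus strand: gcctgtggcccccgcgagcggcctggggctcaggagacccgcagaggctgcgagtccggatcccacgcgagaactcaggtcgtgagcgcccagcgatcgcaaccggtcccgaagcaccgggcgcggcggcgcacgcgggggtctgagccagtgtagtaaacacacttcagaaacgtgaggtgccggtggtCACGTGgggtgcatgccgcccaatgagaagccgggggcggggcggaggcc
Further motifs were searched on both strands. The core letters TGACG of the cAMP response element, which 20.8% of windows hold, were found in both Per1 windows (246 and 132 bases before the start), in the Cry1 window and, as CGTCA, in the Cry2 window. The full element TGACGTCA, which contains those letters (1.79% of windows), and the glucocorticoid response element, GNACA and TGTNC set 3 bases apart (0.475%) were found in none of the members' windows. AACGTG was also found in the windows of Cry2 and Nr1d1, and those of Clock, Npas2 and Nr1d2 held none of the 7 motifs.

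Cry2 (ENSMUSG00000068742, GRCm38 chr2:92403646-92434043, minus strand) was lower at 8h in periportal hepatocytes, with 29.2, 36.6 and 35.4 CPM when fed and 19.5, 24.7 and 23.8 CPM at 8h. These groups did not overlap, and the fall was -0.58 (log2, SE 0.17; edgeR adjusted p = 0.0320). This call was lost when any of 5 single periportal libraries was left out, with log2 values between -0.67 and -0.47. In pericentral hepatocytes Cry2 had 27.1, 27.6 and 30.3 CPM when fed and 20.1, 30.9 and 23.4 CPM at 8h, groups that overlapped (log2 -0.19, SE 0.17; adjusted p = 0.529). In the annotation 295 exonic bases of Cry2 overlap the gene D930015M05Rik on the other strand, and 33 exonic bases of Arntl overlap Gm45355 on the other strand. The use of strand in the authors' counting is not given in the sources used here.

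The REV-ERB genes differed from each other. Nr1d2 (ENSMUSG00000021775, GRCm38 chr14:18204054-18239127, minus strand), which encodes REV-ERB beta, had 56.0, 58.5 and 41.7 CPM in fed and 13.6, 20.9 and 22.8 CPM in 8h pericentral libraries. In periportal libraries it had 41.2, 58.7 and 64.0 CPM and 20.2, 20.8 and 24.7 CPM. No 8h library overlapped the fed range. The fall was 2.73-fold (log2 -1.45, SE 0.20; edgeR adjusted p = 1.67e-04) and 2.50-fold (log2 -1.32, SE 0.20; adjusted p = 4.22e-04).

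Nr1d1 (ENSMUSG00000020889, GRCm38 chr11:98767932-98775333, minus strand), which encodes REV-ERB alpha, had 11.4, 9.10 and 5.61 CPM in fed and 4.55, 5.58 and 8.08 CPM in 8h pericentral libraries. In periportal libraries it had 7.68, 10.5 and 13.1 CPM and 7.96, 5.25 and 6.99 CPM. The groups overlapped in both zones. The differences of -0.52 (log2, 95% interval -1.33 to 0.30) and -0.63 (-1.44 to 0.18) did not pass the test (edgeR adjusted p = 0.431 and 0.313). In the annotation 263 exonic bases of Nr1d1, 8.55% of its exonic length, overlap Thra, the thyroid hormone receptor gene on the other strand. Thra averaged 6.88 ± 1.47 CPM in fed and 10.7 ± 1.68 CPM in 8h pericentral hepatocytes, a rise of 0.63 (log2, edgeR adjusted p = 0.0177). In periportal hepatocytes Thra averaged 7.57 ± 0.792 and 10.4 ± 0.969 CPM, a difference of 0.45 that was not called (adjusted p = 0.0817). Whether reads of Thra entered the Nr1d1 value was not tested.

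**Figure D2:**
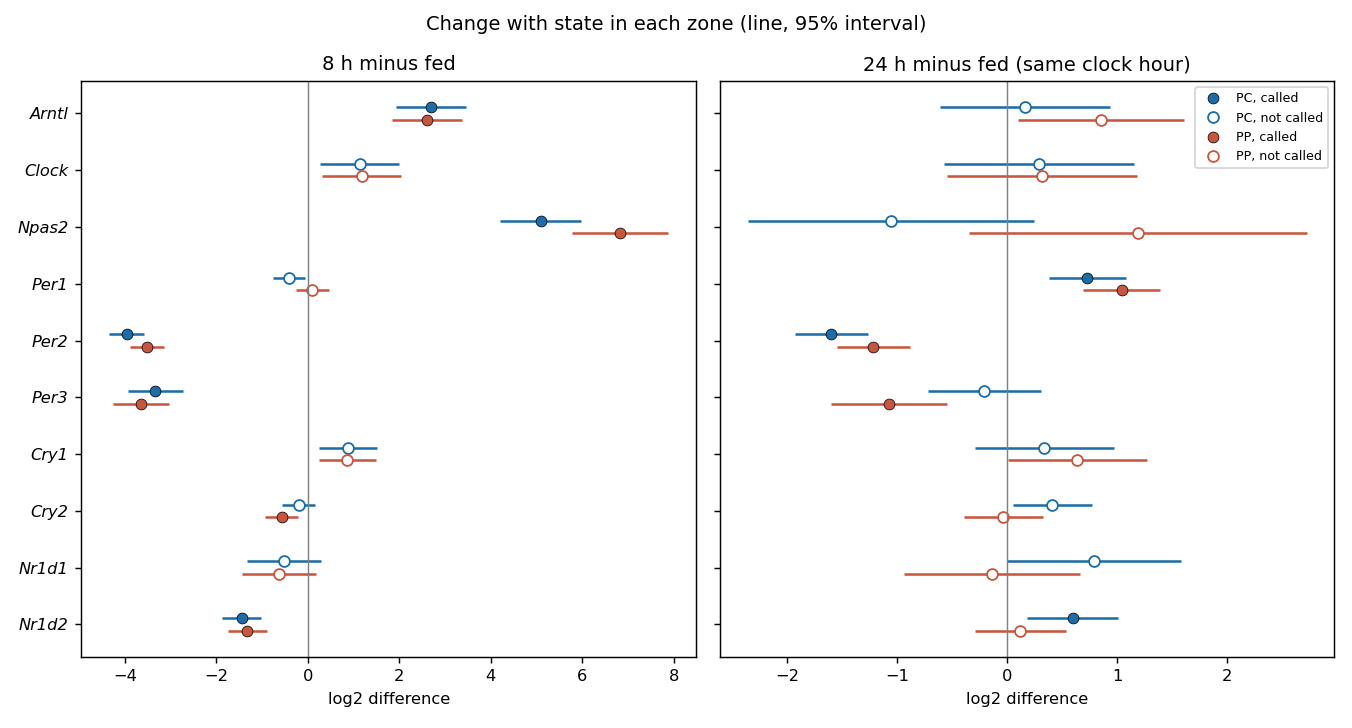
Log2 difference from the fed state (horizontal axes) for each gene, at 8h on the left and at 24h on the right, with pericentral values in blue and periportal ones in red; filled points were called by edgeR, open ones were not, and lines are 95% intervals. At 8h Arntl and Npas2 lie far to the right and Per2 and Per3 far to the left in both zones, whereas at 24h most values lie within 1 log2 unit of 0. Npas2 passed the filter on low counts through its 8h libraries alone, so its filled points at 8h had to differ and are no support.

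The 24h groups were killed at the same clock hour as the fed groups, which removes the clock hour from this comparison but leaves the length of the fast and the missed meals. In pericentral hepatocytes 3 of the 10 genes were called (2 higher, 1 lower), where 21.8% of all genes tested were called (10.8% higher, 11.1% lower). In periportal hepatocytes it was again 3 (1 higher, 2 lower), against 19.6% of all genes (9.59% higher, 10% lower). Averaged over the zones 3 were called, Per1 higher and Per2 and Per3 lower, against 34.5% of all genes tested (17% higher, 17.5% lower). With 3 of 10 genes called, the share was near that of all genes, so these counts say nothing particular about the clock genes. Both this comparison and the previous one use the same fed libraries. In the pericentral 24h libraries the 4 listed periportal markers were also all called higher than in the fed ones (median 1.92, log2), while none of the 4 pericentral markers was called. Their part in the pericentral 24h values of the clock genes was not tested.

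Per1 and Per2 were called at 24h in both zones, in opposite directions. Per2 had 22.9, 23.6 and 21.5 CPM in pericentral and 26.4, 26.2 and 28.2 CPM in periportal 24h libraries. These libraries lay between the fed and the 8h ranges without touching either. Per2 remained 3.03-fold below the fed level in pericentral (log2 -1.60, SE 0.16; edgeR adjusted p = 6.08e-06) and 2.32-fold below it in periportal hepatocytes (log2 -1.22, SE 0.16; adjusted p = 6.77e-05).

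Per1 was at its highest in the 24h groups. It had 46.9, 36.9 and 42.9 CPM in pericentral and 42.3, 46.6 and 47.1 CPM in periportal 24h libraries, all above every fed library. The rise was 1.66-fold in pericentral (log2 0.73, SE 0.17; edgeR adjusted p = 0.00464) and 2.06-fold in periportal hepatocytes (log2 1.04, SE 0.17; adjusted p = 4.18e-04). Per1 is known to respond to glucocorticoid and cAMP signals as well as to the clock. As measured beside it, 4 of 7 listed glucocorticoid targets were higher at 24h in pericentral and 6 in periportal cells, and none were lower, where 10.8% and 9.59% of all genes tested were higher. Pericentral 24h replicate 2 had the lowest sum of these targets in its group, 1998 CPM against 5831 and 4599 CPM. Among them Klf9 rose by 1.79 and 1.46 (log2). At 8h 3 of the 7 had also risen in each zone (7.27% and 7.56% of all genes tested were higher), Klf9 by 1.73 and 1.54, while Per1 was not called. Of the 4 cAMP targets tested, Sik1 rose in pericentral hepatocytes at 24h (1.86, edgeR adjusted p = 0.0203) and none passed in periportal ones. Their part in the rise of Per1 was not tested.

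Per3 at 24h was lower than in the fed state in periportal hepatocytes, at 13.6, 13.9 and 8.97 CPM (log2 -1.07, SE 0.25; edgeR adjusted p = 0.00640). The pericentral libraries had 18.6, 31.9 and 16.8 CPM and overlapped the fed ones (log2 -0.21, 95% interval -0.72 to 0.30; adjusted p = 0.593). The highest of these was replicate 2, and without it the pericentral value was -0.55 and was not called. The zone difference in this change, -0.87 (SE 0.34; adjusted p = 0.564), did not pass the test.

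Arntl at 24h had 6.17, 2.83 and 7.27 CPM in pericentral libraries, within the fed range or just outside it. Periportal libraries had 9.22, 5.40 and 13.9 CPM, and 2 of these lay above all fed periportal libraries. The differences from fed were 0.16 (log2, 95% interval -0.62 to 0.94; edgeR adjusted p = 0.804) and 0.85 (0.10 to 1.61; adjusted p = 0.108). The pericentral value was 0.48 without replicate 2 of the 24h group and was not called. The periportal value was called by DESeq2 (adjusted p = 0.0488) and without periportal 24h replicate 2 (1.14, adjusted p = 0.0374), and without periportal 24h replicate 3 it was 0.46 (adjusted p = 0.454). Cry1 had 26.2, 15.4 and 28.9 CPM in pericentral and 27.8, 26.8 and 49.7 CPM in periportal libraries, and neither difference passed (0.34 and 0.64; adjusted p = 0.463 and 0.150). Without replicate 3 of the periportal 24h group, its highest library, the periportal Cry1 value was 0.29.

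Nr1d2 had 62.8, 88.6 and 84.6 CPM in pericentral 24h libraries and 59.0, 61.1 and 58.1 CPM in periportal ones. The pericentral libraries lay above the fed ones, a rise of 0.59 (log2, SE 0.19; edgeR adjusted p = 0.0385) that was no longer called without replicate 2 (0.50, adjusted p = 0.130). This call was also lost without pericentral 24h replicate 3, without fed pericentral replicate 1 or 3, and with no filter. Its adjusted p went up to 0.157. In periportal hepatocytes the difference was 0.12 (-0.29 to 0.53; adjusted p = 0.725). Cry2 had 30.6, 48.5 and 33.7 CPM in pericentral and 35.9, 30.2 and 32.6 CPM in periportal libraries, with differences of 0.41 and -0.04 that did not pass (adjusted p = 0.0970 and 0.916).

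Pericentral 24h replicate 2 had the lowest Clock, Arntl and Cry1 and the highest Nr1d1, Nr1d2, Per3 and Cry2 of all 18 libraries. Clock was at 4.38 CPM in it and at 20.9 and 20.6 CPM in the other libraries of the group. Nr1d1 was at 22.9 CPM in it, against 7.38 and 14.8 CPM. Without this library Clock was called higher at 24h than in the fed state in pericentral hepatocytes (0.73, edgeR adjusted p = 0.0284; 0.29 with it). Averaged over the zones, 6 genes rather than 3 were then called, with Arntl at 0.67, Clock at 0.52 and Cry1 at 0.60 joining Per1, Per2 and Per3. Without pericentral 24h replicate 1 instead, 5 genes rather than 3 were called in pericentral hepatocytes, with Cry2 at 0.53 and Nr1d1 at 1.10 joining Per1, Per2 and Nr1d2. Whether Clock, Nr1d1, Cry2 and Nr1d2 were called in the pericentral 24h group thus depended on single libraries.

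Between 8h and 24h most members moved back towards their fed level or past it. In all, 8 genes were called in pericentral hepatocytes (6 higher, 2 lower at 24h), where 9.71% of all genes tested were called (5.2% higher, 4.51% lower). In periportal hepatocytes 6 were called (4 higher, 2 lower), against 7.46% (3.22% higher, 4.24% lower). Averaged over the zones 9 were called (6 higher, 3 lower), Cry1 being the exception, against 20.2% of all genes tested (10% higher, 10.2% lower). Npas2, which passed the filter on low counts through its 8h libraries alone, is among the lower genes of each of these counts and is no support for them. The averaged call of Clock (-0.86, adjusted p = 0.0461) was lost in 15 of the 18 fits that left out a library, with no filter and with the groups of the contrast alone, and its adjusted p ranged from 0.00752 to 0.107. The averaged call of Nr1d1 (0.90, adjusted p = 0.0290) was lost in 7 of those 18 fits, with no filter and by limma-voom, with an adjusted p from 0.00377 to 0.0821. Arntl fell 5.80-fold and 3.37-fold (edgeR adjusted p = 7.25e-04 and 0.00756). Per2 rose 5.14-fold and 4.91-fold (1.71e-06 and 2.97e-06), and Per3 8.75-fold and 5.95-fold (1.17e-05 and 1.78e-04). Per1 rose 2.20-fold and 1.92-fold and Nr1d2 4.12-fold and 2.72-fold, all called. Cry2 and Nr1d1 were called higher in pericentral hepatocytes, by 0.60 and 1.31 (log2; adjusted p = 0.0345 and 0.0428), and both calls were fragile. That of Cry2 was lost without any of 4 single libraries and with the groups of the contrast alone, and that of Nr1d1 without any of 10 single libraries and under 4 other alternatives. Without pericentral 24h replicate 2 the values were 0.38 and 0.86 (adjusted p = 0.184 and 0.196). In periportal hepatocytes Clock (-0.86) and Cry2 (0.54) were not called (adjusted p = 0.219 and 0.0664), but were without that library (0.0152 and 0.0344).

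The Period genes also changed their order within each library. The log2 ratio of the CPM of Per1 to that of Per2 ranged from -1.86 to -1.16 in the 6 fed libraries, from 1.66 to 2.59 in the 6 libraries at 8h and from 0.64 to 1.03 in the 6 at 24h. The ranges of the 3 states did not overlap, and the fed and 24h libraries, killed at the same clock hour, lay on opposite sides of 0. A second ratio, of Arntl to its repressor Nr1d1, ranged from -1.80 to 0.29 when fed and from -2.98 to 0.87 at 24h, ranges that overlapped, and from 1.78 to 2.75 at 8h, above both. The ratio of Arntl to Per3 was from -3.10 to -1.83 when fed, from 3.08 to 4.32 at 8h and from -3.46 to 0.63 at 24h. These ratios use the same values as the tests above and were not tested again.

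**Figure D3:**
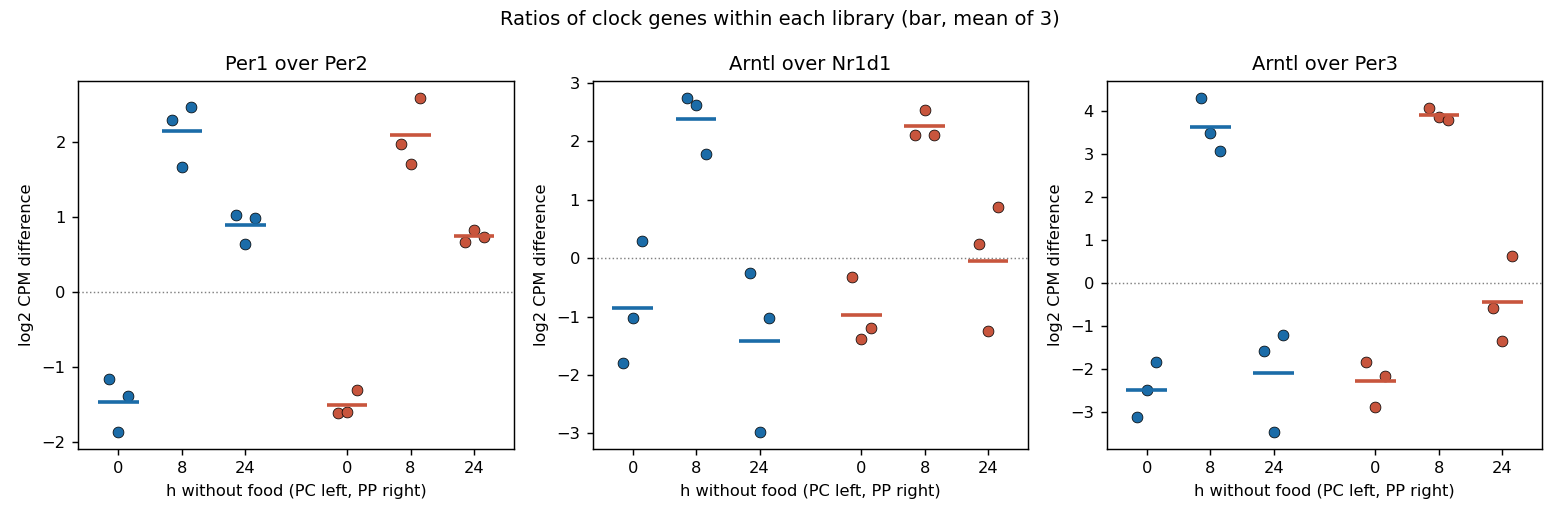
Log2 difference between the CPM of 2 clock genes in the same library (vertical axes), for Per1 over Per2, Arntl over Nr1d1 and Arntl over Per3, against hours without food, with pericentral libraries in blue on the left and periportal ones in red on the right; bars are the mean of 3. The Per1 to Per2 ratio lies below 0 in all fed libraries and above 0 in all others, whereas Arntl over Nr1d1 stands clear of the other states at 8h alone.

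Per kilobase of the longest annotated coding transcript, which allows levels to be set side by side between genes, Per2 and Nr1d2 led the fed pericentral libraries at 11.8 ± 0.598 and 11.2 ± 1.95 CPM per kilobase (mean ± SD, n = 3). Cry2 (7.13 ± 0.439), Cry1 (6.12 ± 0.616), Per1 (5.46 ± 1.55) and Per3 (4.32 ± 0.314) followed, and Nr1d1 was at 3.20 ± 1.07, Arntl at 1.62 ± 0.623, Clock at 1.28 ± 0.173 and Npas2 at 0.0409 ± 0.0114. In this order the steps from Nr1d2 to Cry2 and from Clock to Npas2 were larger than the summed SDs of the genes on either side, and no other step was. At 8h the order was led by Cry1 at 11.3 ± 4.77 and Arntl at 10.5 ± 1.11, which did not differ beyond their spread, followed by Cry2 at 6.24 ± 1.39 and Per1 at 4.12 ± 0.0882, and closed by Per2 at 0.761 ± 0.255 and Per3 at 0.428 ± 0.159. At 24h Nr1d2 stood first at 16.9 ± 2.98, followed by Cry2 at 9.46 ± 2.41 and Per1 at 9.04 ± 1.07, while Per2, first in the fed state, was at 3.88 ± 0.183. The fed periportal order was led by Nr1d2 at 11.7 ± 2.56 and Per2 at 10.7 ± 1.50, which did not differ beyond their spread. At 8h it was led by Cry1 at 13.4 ± 1.42 and Arntl at 10.8 ± 0.753, and at 24h by Nr1d2 at 12.7 ± 0.323, Cry1 at 11.5 ± 4.27 and Per1 at 9.70 ± 0.570. Transcript use in these libraries was not analysed here, so the lengths are those of the annotation.

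The zones were compared next, in each state. None of the 10 genes was called between periportal and pericentral hepatocytes in the fed state (8.01% of all genes tested were called), at 8h (7.14%) or at 24h (4.17%), or averaged over the states (20.3%), by edgeR at an adjusted p under 0.05. At an unadjusted p under 0.05 there were 1, 0, 2 and 2 genes. DESeq2's Wald test called 0, 0, 1 and 1, and limma-voom 0, 0, 1 and 0. No zone difference in a change between states was called either for the 10 genes (edgeR, DESeq2 and limma-voom, 0 each; 2, 2 and 1 at an unadjusted p under 0.05 for 8h against fed, 24h against fed and 24h against 8h), where 0%, 0.016% and 0% of all genes tested were called. A p that misses the threshold does not show equal levels, so the intervals are given.

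Averaged over the states, the 95% interval of the periportal minus pericentral difference (log2) ran from -0.14 to 0.26 for Per1, from -0.06 to 0.34 for Per2, from -0.23 to 0.18 for Cry2 and from -0.29 to 0.19 for Nr1d2. These 4 genes were the most precisely measured of the loop, and none of their intervals reached beyond 0.34 in either direction. The intervals were wider for Nr1d1 (-0.55 to 0.38), Clock (-0.27 to 0.72) and Arntl (-0.10 to 0.76), and widest for Npas2 (-1.02 to 0.39), which was near 0 outside the 8h groups. The interval of Cry1 lay just above 0, from 0.0026 to 0.73 (0.37, edgeR adjusted p = 0.155). The interval of Per3 lay below 0, from -0.74 to -0.08 (-0.41, adjusted p = 0.0738), and Per3 was called by DESeq2 (0.0426) and without pericentral 8h replicate 1 (0.0148) or pericentral 24h replicate 3 (0.0425). The zone markers in the same libraries differed by a median of -3.75 (pericentral markers) and 2.85 (periportal markers) on the same scale. By state the periportal markers differed by a median of 3.59 when fed, 3.13 at 8h and 1.83 at 24h. In the same libraries 9 of the 9 immediate early genes tested had higher fitted levels in periportal hepatocytes averaged over the states, with a median of 0.98. Of these, 4 were called, where 20.3% of all genes tested were called in either direction. By state 0, 1 and 2 were called when fed, at 8h and at 24h (8.01%, 7.14% and 4.17% of all genes tested). The summed Kupffer cell and leukocyte markers also reached higher levels in periportal libraries, as given above. Their part in the zone values of the clock genes was not tested.

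Per3 came nearest to a zone difference. At 24h its 3 periportal libraries, at 13.6, 13.9 and 8.97 CPM, lay below the pericentral ones, at 18.6, 31.9 and 16.8 CPM, without overlap. Those of Per2 and Nr1d2 did not overlap between the zones at 24h either (log2 0.25 and -0.40, edgeR adjusted p = 0.463 and 0.308). Nor did those of 2 genes in the fed state, Npas2 and Cry1, and of 2 at 8h, Clock and Per1. How many of all genes tested lacked overlap was not counted, so the lack of overlap is a description only. The Per3 difference was -0.89 (log2, SE 0.25; edgeR adjusted p = 0.0570). It was called by DESeq2's Wald test (adjusted p = 0.0153), by limma-voom (0.0480) and by edgeR with a filter at a mean of 1 CPM (0.0493). Pericentral and periportal 24h libraries of the same number deviated together from their group means (r = 0.121, 0.165 and 0.147). No fit paired the zones within 24h. With the replicate number as a block shared by all 18 libraries, Per3 was called by edgeR (-0.86, adjusted p = 0.0496), which is not a paired result. It was also called without pericentral 8h replicate 1 and without pericentral 24h replicate 3. Over all alternatives and left-out libraries its adjusted p ranged from 0.0153 to 0.245. Without pericentral 24h replicate 2 it was -0.54 (adjusted p = 0.245). In the fed state the zone difference of Per3 was -0.02 (95% interval -0.53 to 0.49), and at 8h it was -0.33 (-0.99 to 0.33).

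At 8h the libraries of Per2 overlapped between the zones (log2 0.32, SE 0.18; edgeR adjusted p = 0.343). Pericentral 8h replicate 2 had the highest Per2 of its group, 6.14 CPM, and without it Per2 was called higher in periportal hepatocytes at 8h (0.60, adjusted p = 0.0304). Averaged over the states and without that library, Per2 (0.24, adjusted p = 0.0353) and Cry1 (0.48, adjusted p = 0.0413) were called higher in periportal hepatocytes. Apart from Per2, Per3 and Cry1, none of the 10 genes was called between zones under any of the alternatives or left-out libraries tried. Arntl at 24h had an interval above 0 (0.82, 0.06 to 1.58) but an adjusted p of 0.253, and the fed Npas2 value (-1.64, -3.04 to -0.25; adjusted p = 0.157) rested on the few counts given above.

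**Figure D4:**
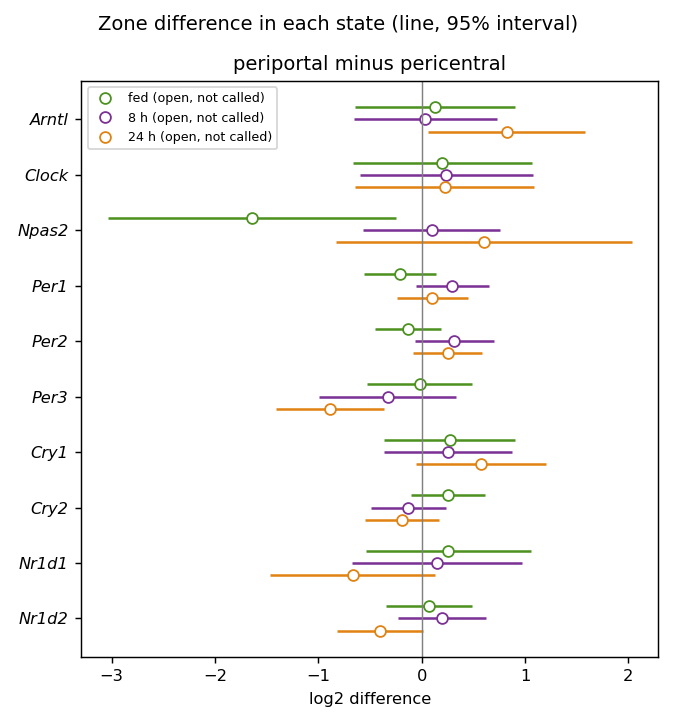
Periportal minus pericentral log2 difference (horizontal axis) for each clock gene in the fed state (green), at 8h (purple) and at 24h (orange), with lines for 95% intervals; open points mark values that were not called, which holds for all of them. Per3 at 24h, at -0.89, had the lowest adjusted p of the 10 genes at 24h, and the lines of Npas2 in the fed and 24h states, where it had 0 to 6 counts, are the widest.

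The targets of the loop were read from lists. Of 7 output genes, 1 rose and 5 fell at 8h in pericentral hepatocytes, and 1 rose and 4 fell in periportal ones, where 6.57% and 6.85% of all genes tested were lower, with a median of -1.03 and -0.73 (log2; 0.01 and 0.01 over all genes tested). The gene that rose was Nfil3, which encodes a repressor at the D-box, by 1.64 and 1.73 (edgeR adjusted p = 1.08e-04 and 7.72e-05). The D-box activator genes fell. Their log2 differences were -4.96 and -4.08 for Dbp (adjusted p = 1.42e-04 and 3.84e-04), -1.60 and -1.76 for Tef, and -0.57 and -0.73 for Hlf. Dbp had 18.5, 23.2 and 14.3 CPM in fed and 0.492, 1.26 and 0.116 CPM in 8h pericentral libraries. Wee1, a cell cycle kinase gene with E-boxes, also fell (log2 -2.97 and -3.54). Beside these, Per3, with the D-boxes printed above, fell at 8h as given, in the same libraries. The part of these factors or of the D-boxes in the fall of Per3 was not tested.

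At 24h against fed, Nfil3 was still higher in both zones (1.08 and 1.31; edgeR adjusted p = 0.00175 and 5.35e-04). Dbp, Tef and Hlf were not called in either zone (Dbp 0.95 and -0.22; Tef 0.32 and 0.11). Noct, which encodes the clock-controlled protein nocturnin, was higher in periportal hepatocytes (0.60, adjusted p = 0.0405) and Wee1 lower there (-0.81, adjusted p = 0.0455), as Per3 was.

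Of 14 accessory clock genes, 2 rose and 2 fell at 8h in pericentral and 1 rose and 2 fell in periportal hepatocytes, where 13.8% and 14.4% of all genes tested were called. Whether these counts differ from that background was not tested. Bhlhe40, which encodes the E-box repressor DEC1, fell at 8h (log2 -2.32 and -1.14) and was still lower at 24h (-1.82 and -1.63; edgeR adjusted p at 24h = 0.00161 and 0.00374). Ciart, which encodes a further repressor of the BMAL1 pair, fell at 8h (log2 -2.15 and -1.83) and was not called at 24h (1.18 and 1.04). Csnk1d, which encodes a kinase that phosphorylates PER proteins, rose in all 4 comparisons, from 0.28 to 0.46. Rora, the activator that competes with REV-ERB, rose at 24h in pericentral hepatocytes (0.54, adjusted p = 0.00441). At 24h against fed, 3 of the 14 rose and 2 fell in pericentral and 1 rose and 2 fell in periportal hepatocytes, against 21.8% and 19.6% of all genes tested. The medians of this list were -0.01 and -0.07 at 8h and 0.26 and 0.01 at 24h.

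**Figure D5:**
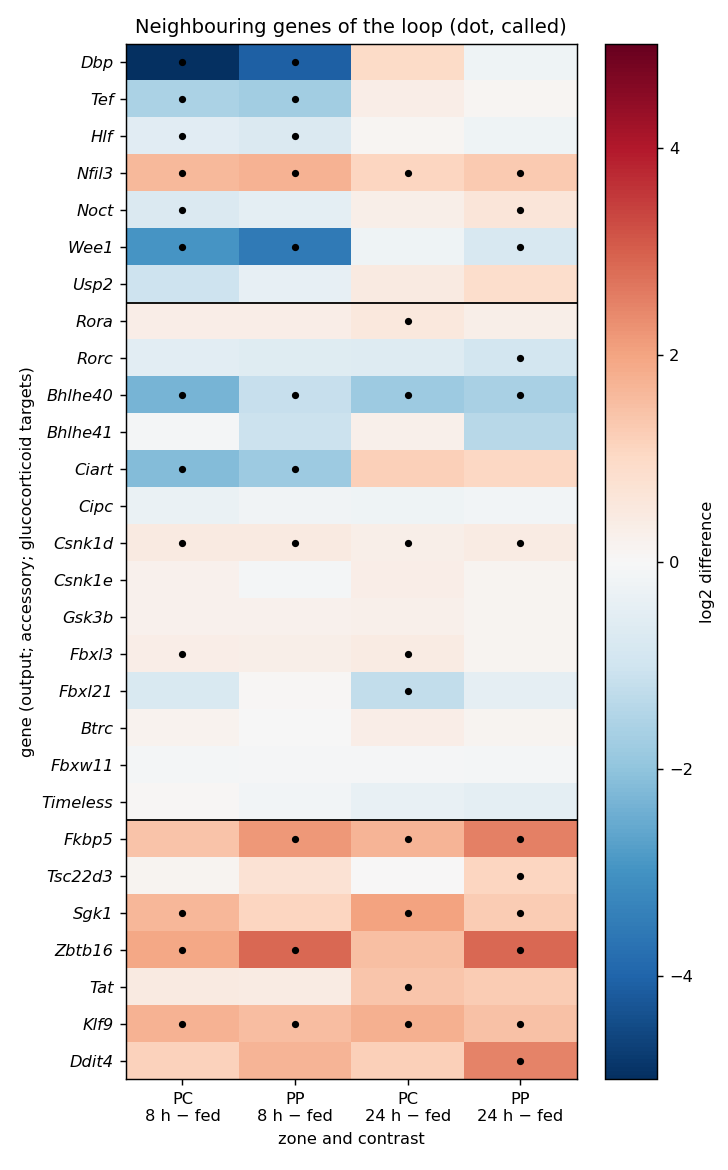
Log2 difference from the fed state (colour; red higher, blue lower) of output genes, accessory clock genes and glucocorticoid targets, from top to bottom between the lines, in each zone at 8h and 24h; dots mark changes called by edgeR. The darkest blue entries, those of Dbp and Wee1, are in the 8h columns, Bhlhe40 is blue in all 4 columns, and Nfil3 and Klf9 are red in all 4.

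Genes with the most similar pattern were sought among 6573 other genes with a mean of at least 10 CPM, by the Pearson r of log2 CPM over the 18 libraries. Since these libraries share zones, states and clock hours, the r values describe a shared pattern over groups and have no p. For Per3 the closest were Wee1 (r = 0.989) and Cops7a (0.974), and for Per2 Lmo7 (0.962) and Cops7a (0.953). For Arntl they were Clpx (0.952) and Blcap (0.938), and for Npas2 Dhrs3 (0.969) and Coq8a (0.943). Clpx, a mitochondrial protease subunit gene, averaged 80.0 ± 11.2 CPM in fed, 441 ± 50.7 CPM in 8h and 135 ± 35.2 CPM in 24h pericentral libraries (mean ± SD, n = 3). Nr1d2 was closest to Tef (0.968) and Dbp (0.934). Cry2 was closest to Tef (0.850) and Gpd1l (0.835), Cry1 to Trir (0.870) and Ric8b (0.844), and Nr1d1 to Smlr1 (0.902) and Naa50 (0.868). Per1, whose high state was 24h, was closest to the adiponectin receptor gene Adipor1 (0.917) and to Baiap2l1 (0.887), and Clock to Clic4 (0.882) and Inppl1 (0.838). By Spearman's rank correlation 5 of these 20 pairings stayed among the first 2 for their gene.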

How the data were processed

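RNA-seq values were estimated counts per gene that the authors deposited for all 18 libraries. The submitters' processing notes name kallisto 0.46.0 and mm10, with no role or order. The gene annotation, the summing to genes and the use of strand are not given in the sources used here. Between 67.5% and 70.5% of the deposited values per library were whole (within 1e-09), and all were rounded before testing. Symbols were matched for 27566 identifiers, and 464 had none.

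One edgeR 4.0.16 quasi-likelihood model (R 4.3.3; TMM scaling, edgeR's default filter, robust) was fitted over the 18 libraries with 6 group means, and p-values were adjusted by Benjamini-Hochberg over 12477 genes. DESeq2 1.42.0 and limma 3.58.1 were alternatives, beside other scalings, filters, the groups of the contrast alone, the replicate number as a block and each library left out. Replicate numbers carry no stated meaning. Same-numbered libraries of the 2 zones deviated together at 24h, with every r over 0.1. The block was a single term shared by all 18 libraries and states, so it did not pair the zones within a state. The blocked value is given beside the zone result at 24h that it changes. The fit was tested on simulated data. Positions and transcript lengths came from GENCODE M21 (GRCm38), and windows from RefSeq (GRCm38.p6). The members, the listed genes (clock accessory and output genes, hormone, nutrient and temperature responses, cell type markers) and the tests were chosen with earlier results of these data known. Text names the 10 members, listed genes, and the 2 genes with the highest r per member. Counting intervals cover counting error only.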

Additional observations from a re-analysis of the deposited data

How the results depend on the processing

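For the 10 clock genes none of the 160 comparisons between groups changed direction while called. Under 8 alternatives that kept all libraries, 1233 values stayed on their side of the threshold, 10 lost their call and 21 gained one. With each of the 18 libraries left out in turn the numbers were 2799, 51 and 30. Of 4144 values compared, 79 uncalled ones changed sign, none larger than 0.32 (log2) at first. Averaged over the zones, 24h against fed gave 5 called members by DESeq2 instead of 3, and 3 to 6 with a library left out (6 without pericentral 24h replicate 2). In pericentral hepatocytes that comparison gave 2 to 5 (5 without pericentral 24h replicate 1). Between zones at 24h, 1 member (Per3) was called under the filter at a mean of 1 CPM, by DESeq2, by limma-voom and with the replicate block, and 0 to 1 with a library left out. At 8h it was 0 to 1 with a library left out. Averaged over the states it was 1 by DESeq2 and 0 to 2 with a library left out. Left-out libraries gave 5 to 7 and 5 to 8 called members at 8h against fed in pericentral and periportal hepatocytes. At 24h against 8h they gave 6 to 8 in each zone and 7 to 9 averaged over the zones. Same-numbered libraries deviated with r between -0.12 and 0.21, with 7 of 45 pairs over 0.1 against 3 of 90 pairs of other numbers, and the own number was the best match in 44 of 90 comparisons with 3 libraries to choose from. With the replicate block Per3 between zones at 24h was -0.86 (edgeR adjusted p = 0.0496). The block also ended the pericentral Nr1d1 call at 24h against 8h (1.26, adjusted p = 0.0576) and gave calls for periportal Cry2 in that comparison (0.56, adjusted p = 0.0334) and for Nr1d2 at 24h against fed averaged over the zones (0.36, adjusted p = 0.0320). It changed no other call of a clock gene. Few counts limit Npas2 outside the 8h groups.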

Other observations

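Genes that respond to body temperature, a known cue for liver clocks, were read from the same fits. Of 7 heat-responsive genes, 4 fell at 8h against fed in pericentral and 2 in periportal hepatocytes, and none rose, where 6.57% and 6.85% of all genes tested were lower. Hsp90aa1, which encodes a heat-inducible chaperone, fell at 8h (log2 -1.64 and -1.44) and at 24h (-1.67 and -0.96; edgeR adjusted p = 5.41e-04, 0.00177, 3.67e-04 and 0.0162). Hspa8, the constitutive chaperone gene, fell at 8h (log2 -1.81 and -1.26). At 24h 2 of the 7 fell in pericentral and 1 in periportal hepatocytes, where 11.1% and 10% of all genes tested were lower. The cold-inducible gene Cirbp rose at 24h by 1.18 and 1.07 (adjusted p = 0.00980 and 0.0180), and at 8h it was not called (0.88 and 0.37). Rbm3, a second such gene, fell at 8h (log2 -0.82 and -0.53) and at 24h rose in periportal hepatocytes (0.45; pericentral 0.30, not called).

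Of 6 genes that tie nutrient state to the clock, 2 fell at 8h in pericentral hepatocytes, and 1 rose and 2 fell in periportal ones, where 13.8% and 14.4% of all genes tested were called. Nampt, the gene of the rate-limiting enzyme of NAD salvage and itself a clock output, fell at 8h (log2 -1.24 and -1.48; edgeR adjusted p = 9.53e-04 and 2.77e-04). At 24h Nampt was higher than fed in pericentral hepatocytes (0.66, adjusted p = 0.0339) and at -0.01 in periportal ones (adjusted p = 0.984). Sirt1, an NAD-dependent deacetylase gene, rose at 24h by 0.75 and 0.56, and Ppargc1a, a coactivator gene of fasting metabolism, by 1.68 and 1.68. Prkaa2, which encodes a catalytic subunit of the energy sensor AMPK, fell in all 4 comparisons (log2 -0.78 to -0.56). The part of these genes in the clock values was not tested.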
